A study of Mus musculus with 6 samples.

Results

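Quiescent hepatic stellate cells are known by a small set of transcripts, and 10 of these markers (Tcf21, Cygb, Reln, Colec11, Sod3, Bmp5, Pth1r, Des, Hand2 and Nes) are described here in libraries of liver sinusoidal endothelial cells (LSECs). The genes were taken by symbol from a table of 34745 genes. All 10 symbols were found, each in a single row, and all 10 passed the filter on low counts that left 13692 genes for testing. The libraries came from the livers of Tgfbr2 ECKO mice, an endothelial-specific knockout of Tgfbr2 (the type II receptor for TGF-beta), and from their Tgfbr2f/f littermates, which carry the floxed gene and are called f/f below. Mice of both genotypes had received carbon tetrachloride (CCl4), a hepatotoxin that produces liver fibrosis, by intraperitoneal injection 2 times a week for 6 weeks, so no library shows an uninjured liver. Each genotype had 3 libraries. They are called ECKO 1 to 3 and f/f 1 to 3 by replicate number, and values of single libraries follow that order. The sources used here do not give the Cre line, the deleted part of Tgfbr2, the strain, sex and age of the mice or the way LSECs were isolated.

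Stellate cells lie in the space of Disse between the sinusoidal endothelium and the hepatocytes. In the resting state they store vitamin A and wrap the sinusoid as pericytes. After injury they lose that state, divide and become collagen-producing myofibroblasts, a change for which TGF-beta is a classical inducer. The genes described here were taken as markers of the resting cell. Whether activated stellate cells also make them was not tested, so a lower level is not by itself a loss of the resting state. Des is also made by smooth muscle, Reln by lymphatic endothelium and Nes by several proliferating or immature cell types.

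Total counts were 17171850 to 18671217 in ECKO libraries and 17632271 to 25062755 in f/f libraries, and transcripts of the mitochondrial genome took 19.7% to 32.4% of counts in ECKO libraries and 11.5% to 23.5% in f/f libraries. Tgfbr2 itself had 498, 487 and 511 CPM (counts of a gene scaled to library size by the TMM method) in ECKO 1 to 3, against 387, 442 and 452 CPM in f/f 1 to 3, or 0.22 on the log2 scale (ECKO over f/f; SE 0.10; adjusted p = 0.228 in the quasi-likelihood test of edgeR). On the TMM scale Tgfbr2 was therefore not lower in the libraries labelled ECKO. With scaling to total counts the log2 fold change was -0.025, so its sign depended on the scaling. A transcript that lacks only the deleted part would still be counted, so these counts do not check the deletion, and every direction given here is that of the libraries labelled ECKO. Separate mice for the libraries are not stated in the labels, so p-values measure the spread between these libraries. A single value compared alone, 3 libraries against 3, cannot reach an exact permutation p below 0.1.

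Of the cell type marker lists used here, the sinusoidal endothelial list had the highest summed level, with stellate transcripts present in all 6 libraries. On the FPKM scale, which corrects for gene length, the sinusoidal scavenger receptor gene Stab2 had 257 to 329 FPKM in ECKO libraries and 325 to 376 FPKM in f/f libraries. The hepatocyte gene Alb had 188 to 448 FPKM in ECKO libraries and 295 to 412 FPKM in f/f libraries, above Stab2 in ECKO 2 and f/f 1. Lrat, the retinol-esterifying enzyme that defines vitamin A-storing stellate cells, had 3.87 to 7.29 FPKM in ECKO libraries and 7.86 to 20.7 FPKM in f/f libraries. The 10 markers summed to 79.0 to 101 FPKM in ECKO libraries and 179 to 223 FPKM in f/f libraries. FPKM is also scaled to the library total, and under total count scaling the median log2 fold change of all tested genes was -0.22. Differences between the groups in FPKM are therefore shifted toward lower values in ECKO against those in CPM. Lrat overlapped between the groups in CPM, with 46.9 in ECKO 1 and 44.1 in f/f 1. In bulk samples of this kind, fewer cells of a type and less RNA per cell cannot be told apart.

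All 10 quiescence markers were lower in every ECKO library than in any f/f library on the TMM-scaled CPM scale, and 7 of the 10 fell past the threshold (edgeR quasi-likelihood test, Benjamini-Hochberg adjusted p at or under 0.05 over all tested genes). The 7 were Tcf21, Cygb, Sod3, Colec11, Bmp5, Reln and Pth1r. Des, Hand2 and Nes did not pass, and none rose. Among all 13692 tested genes 4.03% passed, 2.79% in the lower direction, and 15.2% had all ECKO libraries below all f/f libraries. The members were chosen with earlier results of these data known, so these shares give a scale and are not a test of the list. The members' log2 fold changes (ECKO over f/f) ran from -2.04 for Tcf21 to -0.52 for Nes with a median of -0.91, beside a median of 0.01 over all tested genes. The count of 7 changed when single libraries were left out, which also weakens the test. It was 1, 5 and 4 when ECKO 1, ECKO 2 and ECKO 3 were left out in turn, and 8, 4 and 2 for f/f 1, f/f 2 and f/f 3, while the number of all genes called moved between 35 and 1012. No member changed sign in any of these. The members' median log2 fold change stayed between -0.97 (without ECKO 1) and -0.80 (without ECKO 2). A lost call therefore need not mean a smaller change.

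**Figure D1:**
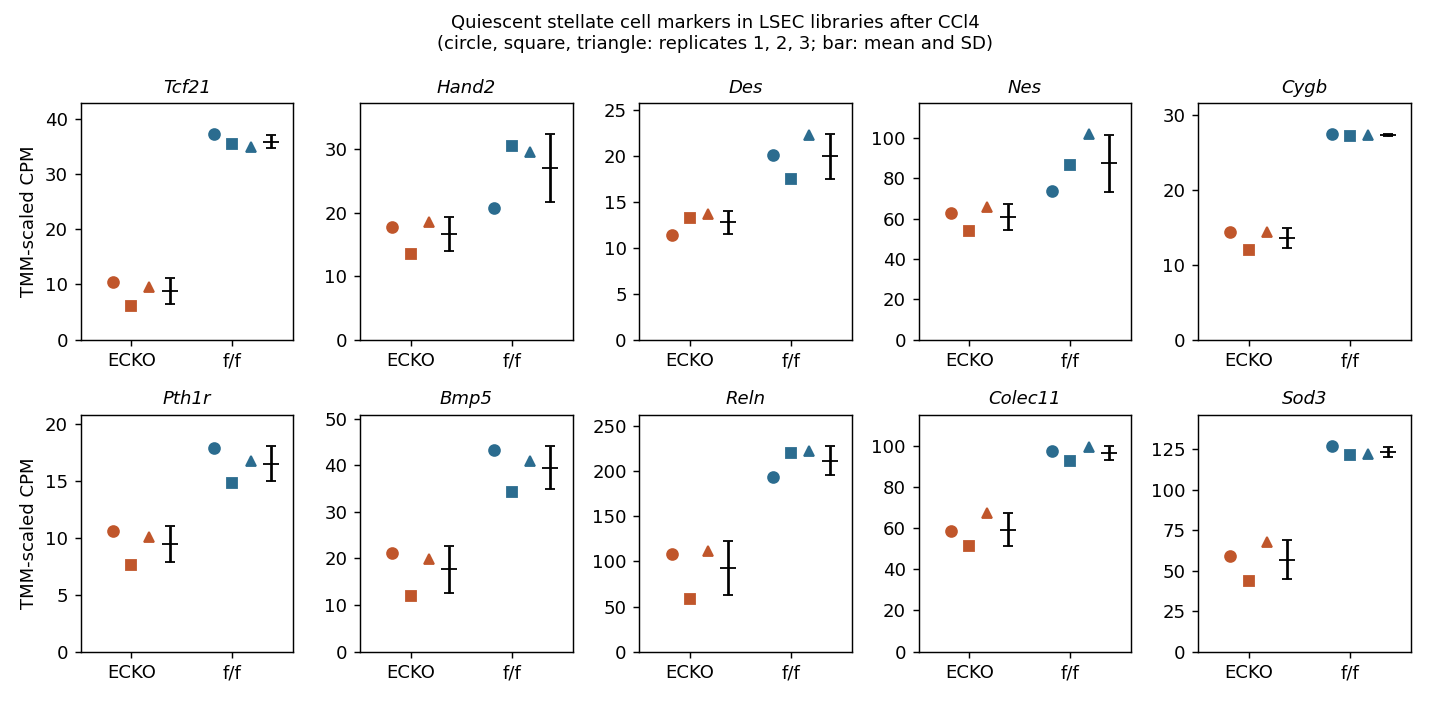
TMM-scaled CPM of the 10 markers in each library, ECKO on the left of each panel and f/f on the right (circles, squares and triangles are replicates 1, 2 and 3, and the bar is the mean with SD, n = 3 each). In every panel the ECKO points lie below the f/f points, with the widest gap relative to level for Tcf21 (6.10 to 10.5 CPM in ECKO, 34.9 to 37.2 CPM in f/f) and narrow ones for Hand2 and Nes.

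Tcf21 and Hand2 encode basic helix-loop-helix transcription factors. Tcf21 marks mesenchymal cells of visceral organs and, in the liver, stellate cells, and Hand2 is a factor of heart, limb and mesenchyme development that stellate cells also carry. Tcf21 (ENSMUSG00000045680, chromosome 10, 22817279 to 22820128, minus strand, mm10/GRCm38) had 10.5, 6.10 and 9.63 CPM in ECKO 1 to 3 (158, 105 and 168 counts), and 37.2, 35.5 and 34.9 CPM in f/f 1 to 3 (889, 722 and 843 counts). The highest ECKO library held 30.1% of the lowest f/f library. Tcf21 fell by 2.04 on the log2 scale (SE 0.20; edgeR, adjusted p = 0.00853), to 24.4% of the f/f level, with the 11th smallest p of all tested genes. It was the only member to pass without each library in turn (adjusted p 0.00461 to 0.0425).

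Hand2 (ENSMUSG00000038193, chromosome 8, 57320983 to 57324517, plus strand) had 17.8, 13.6 and 18.5 CPM in ECKO 1 to 3, against 20.8, 30.6 and 29.7 CPM in f/f 1 to 3. The f/f library nearest to ECKO was replicate 1. The log2 fold change was -0.70 (SE 0.19; edgeR, adjusted p = 0.0806). Without f/f 1 it was -0.85 with an adjusted p of 0.0269, and without any other single library the adjusted p was 0.145 to 0.227. On the opposite strand, 123 bases from the start of Hand2, begins a transcript named AV026068 in the table (Hand2os1 in GENCODE M21, ENSMUSG00000100510, 57304265 to 57320859), and it was chosen after its values were seen. The spans of the 2 genes in the table do not overlap, but in GENCODE M21 they share 461 exon bases, 19.6% of those of Hand2. AV026068 had 20, 46 and 36 counts in ECKO 1 to 3, against 150, 129 and 180 counts in f/f 1 to 3. It fell by 1.72 on the log2 scale (SE 0.28; edgeR, adjusted p = 0.0241), and missed the threshold with ECKO 1 (0.0758), ECKO 3 (0.0870) or f/f 3 (0.105) left out. Counting with strand is not stated, so reads in the shared bases could belong to either gene.

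The promoter windows of both factors, taken from RefSeq on GRCm38.p6 and reaching from 250 bases before to 50 bases after the annotated start, are shown because these genes had the largest and one of the smaller changes, and because the Hand2 window holds the starts of both divergent transcripts. Capitals mark the E-box, CANNTG, the hexamer that such factors bind, searched on both strands (the pattern reads the same on each). The Tcf21 window (chr10:22820094-22820393, minus strand) holds no E-box, and the Hand2 window (chr8:57320733-57321032, plus strand) holds 2, CATCTG and CACTTG.
Tcf21 promoter: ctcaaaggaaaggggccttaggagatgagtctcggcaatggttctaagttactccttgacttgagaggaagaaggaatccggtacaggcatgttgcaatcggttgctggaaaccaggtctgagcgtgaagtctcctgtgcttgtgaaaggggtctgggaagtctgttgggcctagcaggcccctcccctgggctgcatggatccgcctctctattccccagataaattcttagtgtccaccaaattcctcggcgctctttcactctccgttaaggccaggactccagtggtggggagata
Hand2 promoter: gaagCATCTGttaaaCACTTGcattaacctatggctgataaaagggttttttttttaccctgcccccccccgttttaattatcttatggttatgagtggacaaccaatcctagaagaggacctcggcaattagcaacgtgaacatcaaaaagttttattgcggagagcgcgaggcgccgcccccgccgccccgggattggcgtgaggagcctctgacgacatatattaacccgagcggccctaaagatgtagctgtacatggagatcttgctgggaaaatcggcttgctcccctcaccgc
Of the 10 members 8 had such a window, and in 5 of these at least 1 window held an E-box. Of all 32851 windows 72.3% did. The member count is of genes, which had 10 windows between them, while 72.3% is a share of single windows. A TATAAA box, searched on both strands, was in 0 of the 10 windows of the 8 members and in 13.6% of all windows.

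Factors that pair with or resemble these proteins were listed as well. Of 8 listed bHLH and GATA factors 6 were tested, and 0 passed in either direction. Tcf3, Tcf4 and Tcf12, the E protein genes whose products commonly dimerize with such factors and which are named for that role, had log2 fold changes of 0.01, -0.15 and 0.00. Gata6, a GATA factor of stellate and endothelial cells, had 5.53 ± 2.21 CPM in ECKO and 11 ± 3.30 CPM in f/f libraries (SD, n = 3 each; edgeR adjusted p = 0.130). Twist1, a bHLH factor of mesenchyme, had 29.1 ± 3.36 CPM in ECKO and 19.8 ± 2.80 CPM in f/f libraries (edgeR adjusted p = 0.0748), with the ECKO libraries above the f/f libraries.

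Des and Nes encode the intermediate filament proteins desmin and nestin, the first of them the classical antigen for rodent stellate cells. Des (ENSMUSG00000026208, chromosome 1, 75360329 to 75368579, plus strand) had 11.4, 13.2 and 13.7 CPM in ECKO 1 to 3, against 20.1, 17.4 and 22.2 CPM in f/f 1 to 3. It was the only member for which ECKO 2 was not the lowest ECKO library. Its log2 fold change was -0.64 (SE 0.14; edgeR, adjusted p = 0.0518), just short of the threshold. DESeq2 size factors in the same test gave an adjusted p of 0.0491, and without single libraries the range was 0.0664 to 0.188. Nes (ENSMUSG00000004891, chromosome 3, 87971078 to 87980451, plus strand) had 62.9, 53.7 and 65.8 CPM in ECKO 1 to 3, against 73.8, 86.4 and 102 CPM in f/f 1 to 3. Its change was the smallest of the 10, with a log2 fold change of -0.52 (SE 0.14; edgeR, adjusted p = 0.0809). Without f/f 1 it was -0.62 with an adjusted p of 0.0363, and without any other library the adjusted p was 0.149 to 0.240.

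Of 5 other intermediate filament and linker genes, all were tested and 0 passed. Vim, the general mesenchymal and endothelial filament, had 312 ± 44.9 CPM in ECKO and 409 ± 104 CPM in f/f libraries (edgeR adjusted p = 0.289), and Plec, the linker plectin, had 78.7 ± 25.8 CPM in ECKO and 105 ± 5.54 CPM in f/f libraries (adjusted p = 0.277; SD, n = 3 each). Because smooth muscle also makes desmin, its markers are given beside Des. None of 7 tested smooth muscle and pericyte markers of 9 listed passed, with a median log2 fold change of -0.84. The summed level of the list was 15.2 to 18.1 FPKM in ECKO and 28.0 to 32.7 FPKM in f/f libraries. Abcc9 made the largest part of this sum, at 8.66 ± 2.60 FPKM in ECKO and 18.4 ± 1.73 FPKM in f/f libraries. Of all 7 tested, Abcc9, Notch3 and Synpo2 were lower in every ECKO library on the CPM scale. The groups overlapped for Kcnj8, Myh11, Actg2 and Cnn1, with log2 fold changes of -0.09, -0.94, -0.37 and 0.25. The leading 2 by p were Notch3 (2.13 ± 0.0437 CPM in ECKO, 5.90 ± 3.04 CPM in f/f, adjusted p = 0.0820) and Abcc9 (98.0 ± 33.3 CPM in ECKO, 176 ± 36.8 CPM in f/f, adjusted p = 0.135). Myh11, the defining myosin of smooth muscle, had 0.509 to 2.73 FPKM in ECKO and 1.19 to 5.09 FPKM in f/f libraries. Their part in the level of Des was not tested.

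Cygb and Sod3 are linked to oxygen and oxidant handling. Cytoglobin is a haem protein that in the liver is found in stellate cells. Cygb (ENSMUSG00000020810, chromosome 11, 116645595 to 116654313, minus strand) had 14.4, 12.0 and 14.3 CPM in ECKO 1 to 3, against 27.4, 27.2 and 27.3 CPM in f/f 1 to 3. The coefficient of variation (CV) was 10.04% in ECKO libraries and 0.392% in f/f libraries, which were nearly equal. Cygb fell by 1.01 on the log2 scale (SE 0.12; edgeR, adjusted p = 0.00938), to 49.8% of the f/f level, and missed the threshold only without ECKO 1 (0.0509). In GENCODE M21, 8.6% of its exon bases are shared with Prcd on the other strand, a gene with 4 counts in all ECKO libraries and 11 in all f/f libraries.

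Sod3 encodes the secreted superoxide dismutase, which binds to matrix and removes superoxide outside the cell. Sod3 (ENSMUSG00000072941, chromosome 5, 52363791 to 52371418, plus strand) had 59.4, 43.6 and 67.5 CPM in ECKO 1 to 3, against 127, 121 and 122 CPM in f/f 1 to 3. It fell by 1.12 on the log2 scale (SE 0.16; edgeR, adjusted p = 0.0153), and missed with ECKO 1 (0.0756) or f/f 3 (0.0650) left out. The intracellular dismutase genes, named for that role, did not pass, with Sod1 at a log2 fold change of 0.12 and Sod2 at 0.10. Of 7 listed globins and oxidant defence genes, 5 were tested, 1 fell and 0 rose. The gene that fell was Gpx3, the secreted glutathione peroxidase, with 6.67 ± 1.3 CPM in ECKO and 18 ± 5.30 CPM in f/f libraries (SD, n = 3 each; log2 fold change -1.43, SE 0.26, edgeR adjusted p = 0.0314). With single libraries left out, Gpx3 passed for f/f 1 (0.00658) and missed for the other 5 (0.0771 to 0.115), and it missed with limma-voom (0.0696). Cat, the peroxisomal catalase, had 229 ± 34.9 CPM in ECKO and 183 ± 8.78 CPM in f/f libraries (adjusted p = 0.178).

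Bmp5, Reln and Colec11 encode secreted proteins. Bmp5 is a ligand of the bone morphogenetic protein branch of the TGF-beta superfamily. Bmp5 (ENSMUSG00000032179, chromosome 9, 75775364 to 75900310, plus strand) had 21.2, 11.9 and 19.9 CPM in ECKO 1 to 3, against 43.2, 34.2 and 40.9 CPM in f/f 1 to 3. It fell by 1.16 on the log2 scale (SE 0.22; edgeR, adjusted p = 0.0337). With single libraries left out, it passed for ECKO 2 (0.0380) and f/f 1 (0.0445) and missed for ECKO 1 (0.0845), ECKO 3 (0.0886), f/f 2 (0.0538) and f/f 3 (0.118). In GENCODE M21, 46.7% of its exon bases are shared with Gm26903 on the other strand, a gene with 0 counts in all libraries. Of 11 receptors and targets of this branch 10 were tested, of which 0 fell and 1 rose. That gene was Smad6, an inhibitor that BMP signalling induces, with 209 ± 23.8 CPM in ECKO and 144 ± 9.86 CPM in f/f libraries (log2 fold change 0.54, SE 0.12, edgeR adjusted p = 0.0476), which missed the threshold whichever library was left out (0.0592 to 0.140). The call of Smad6 depended on the scaling, the test and the model too. Its log2 fold change was 0.31 (adjusted p = 0.306) under total count scaling. With limma on log2(FPKM + 0.1) and log2(FPKM + 1) it was 0.30 (0.377) and 0.29 (0.379). It stayed at 0.53 to 0.54 but missed with DESeq2 size factors (0.0510), limma-voom (0.0595), the replicate block (0.0598) and without mitochondrial genes (0.0503). Smad6 passed with no filter on low counts (0.0297) and in the DESeq2 Wald test (0.00397). The target genes Id1, Id2 and Id3, also named for their role, had log2 fold changes of -0.16, 0.16 and 0.36. Bmpr1a, a type I BMP receptor, had 6.25 ± 1.59 CPM in ECKO and 13.3 ± 3.93 CPM in f/f libraries (adjusted p = 0.0650).

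Reelin is a large glycoprotein known from neuronal migration that stellate cells also secrete. Reln (ENSMUSG00000042453, chromosome 5, 21884454 to 22344702, minus strand) had 109, 58.2 and 111 CPM in ECKO 1 to 3, against 193, 220 and 222 CPM in f/f 1 to 3. ECKO 2 stood well below the other ECKO libraries, and the ECKO group had a CV of 32.3%, the largest among the members, against 7.60% in f/f libraries. Reln fell by 1.19 on the log2 scale (SE 0.24; edgeR, adjusted p = 0.0414). With ECKO 2 left out it fell by 0.94 and passed (0.0258), as it did with f/f 1 left out (0.0432). It missed for ECKO 1 (0.104), ECKO 3 (0.0870), f/f 2 (0.101) and f/f 3 (0.132). Its receptor and adaptor genes were near the detection limit. Vldlr had 0.0204 to 0.0505 FPKM in ECKO and 0.0754 to 0.262 FPKM in f/f libraries, the adaptor gene Dab1 had 0.0316 to 0.0610 FPKM in ECKO and 0.0930 to 0.136 FPKM in f/f libraries, and Lrp8 was too low to test. Neither tested gene passed (edgeR adjusted p = 0.112 for Vldlr and 0.185 for Dab1). Lymphatic endothelial markers, given because these cells make reelin, summed to 1.56 to 3.29 FPKM in ECKO and 3.73 to 9.29 FPKM in f/f libraries. Of these 4 markers 3 were tested and 0 passed, with Prox1 at a log2 fold change of -0.68 (adjusted p = 0.0981) and Mmrn1 at -1.56 (0.136), while the chemokine gene Ccl21a had 0 counts in all libraries. Their part in the level of Reln was not tested.

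Colec11 encodes collectin-11, a soluble lectin that starts the lectin pathway of complement together with the MASP proteases. Colec11 (ENSMUSG00000036655, chromosome 12, 28594173 to 28623290, minus strand) had 58.8, 51.5 and 67.3 CPM in ECKO 1 to 3, against 97.4, 92.5 and 99.1 CPM in f/f 1 to 3. It was the most abundant member per length, at 39.4 ± 5.35 FPKM in ECKO and 75.8 ± 8.02 FPKM in f/f libraries (SD, n = 3 each). Colec11 fell by 0.70 on the log2 scale (SE 0.12; edgeR, adjusted p = 0.0250). With single libraries left out, it passed for ECKO 3 (0.0452), f/f 1 (0.0286) and f/f 2 (0.0491) and missed for ECKO 1 (0.103), ECKO 2 (0.0512) and f/f 3 (0.110). Its promoter window (chr12:28623281-28623580, minus strand, RefSeq on GRCm38.p6) is shown because it holds the same E-box, CAGCTG, at 2 places, again in capitals.
Colec11 promoter: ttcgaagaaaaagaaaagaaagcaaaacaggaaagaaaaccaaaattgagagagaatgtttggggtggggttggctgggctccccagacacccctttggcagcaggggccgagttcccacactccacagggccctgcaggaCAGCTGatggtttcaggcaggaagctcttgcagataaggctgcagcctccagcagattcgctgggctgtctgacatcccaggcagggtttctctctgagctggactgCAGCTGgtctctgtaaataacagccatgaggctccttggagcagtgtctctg
None of 5 lectin pathway genes passed. Colec10, which encodes the partner chain of collectin-11, had a log2 fold change of 0.08 (SE 0.31; edgeR adjusted p = 0.891), Masp1 had 195 ± 41.0 CPM in ECKO and 237 ± 18.7 CPM in f/f libraries (adjusted p = 0.331), and Masp2 had 2.55 ± 0.941 CPM in ECKO and 2.03 ± 0.922 CPM in f/f libraries (adjusted p = 0.673). The ratio of Colec11 to Colec10 counts was 0.686, 1.46 and 0.865 in ECKO 1 to 3, against 1.41, 1.65 and 1.58 in f/f 1 to 3. The ratios overlapped through ECKO 2. The pair was chosen after its values were seen, so no test is given.

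Pth1r encodes the shared receptor of parathyroid hormone and its related peptide. Pth1r (ENSMUSG00000032492, chromosome 9, 110722085 to 110747145, minus strand) had 10.6, 7.61 and 10.1 CPM in ECKO 1 to 3, against 17.9, 14.8 and 16.8 CPM in f/f 1 to 3. It was the least abundant member per length, at 1.84 ± 0.195 FPKM in ECKO and 3.81 ± 0.288 FPKM in f/f libraries. It fell by 0.81 on the log2 scale (SE 0.17; edgeR, adjusted p = 0.0418), and it missed the threshold whichever of the 6 libraries was left out (0.0569 to 0.142). Of its ligands, Pth had 0 counts in all libraries and Pthlh was too low to test, at 0.0458 to 0.224 FPKM in ECKO and 0.119 to 0.291 FPKM in f/f libraries. Ramp2, an endothelial accessory protein of such receptors, had 471 ± 125 CPM in ECKO and 306 ± 36.9 CPM in f/f libraries (edgeR adjusted p = 0.110).

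Over all these partner genes, 43 were listed and 34 tested. Of the 34, 1 fell, 1 rose and 32 did not pass, with a median log2 fold change of 0.01. The corresponding shares over all tested genes were 2.79% lower and 1.24% higher.

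**Figure D2:**
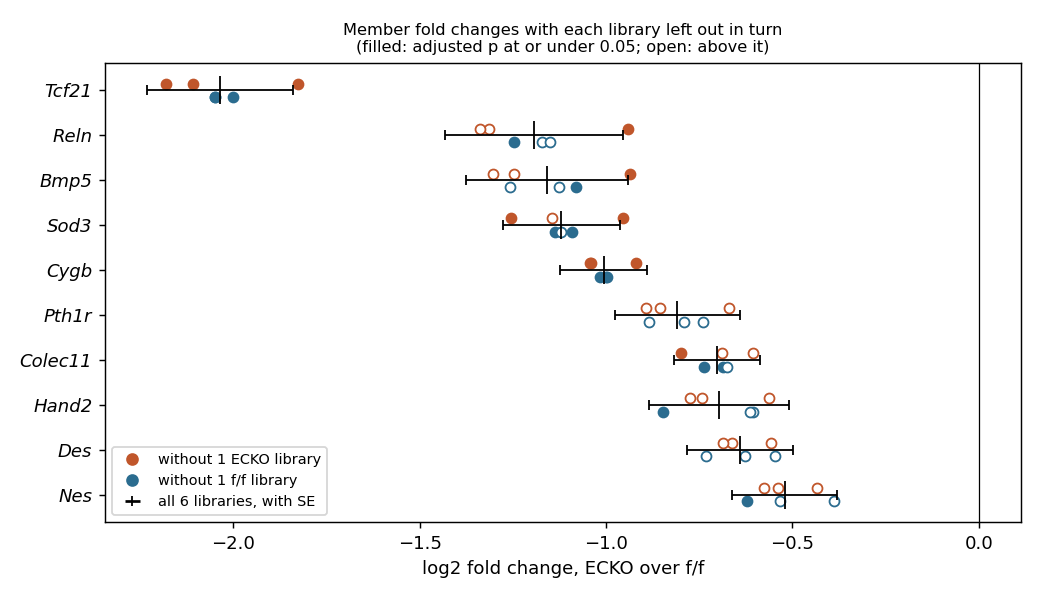
Log2 fold change (ECKO over f/f) of each member with all 6 libraries (black tick with SE) and with 1 library left out (orange, an ECKO library; blue, an f/f library), filled where the adjusted p was at or under 0.05. All points lie left of 0. Tcf21 is filled throughout, Cygb in 5 of 6, and Pth1r and Des in none.

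Tcf21, chosen as numerator because it had the largest fall, is set against the other members as a description with no test. Within a library, the ratio of the counts of 2 genes does not depend on how libraries are scaled. The choice of the member with the largest fall favours lower ratios in ECKO libraries, and the groups overlapped for 0 of the 9 ratios. Tcf21 to Cygb was 0.728, 0.507 and 0.672 in ECKO 1 to 3, against 1.36, 1.303 and 1.28 in f/f 1 to 3. Tcf21 to Bmp5 was 0.484 to 0.512 in ECKO and 0.853 to 1.04 in f/f libraries, and Tcf21 to Nes was 0.114 to 0.167 in ECKO and 0.343 to 0.504 in f/f libraries.

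Levels per length were compared within each group. In ECKO libraries the order by mean FPKM was Colec11, Sod3, Hand2, Tcf21, Cygb, Nes, Bmp5, Reln, Des and Pth1r, and in f/f libraries it was Colec11, Sod3, Tcf21, Hand2, Cygb, Bmp5, Reln, Nes, Des and Pth1r. In ECKO libraries the ranges of the neighbours Hand2, Tcf21 and Cygb overlapped (6.10 to 7.74, 5.0 to 7.36 and 5.16 to 5.74 FPKM), as did each neighbouring pair from Nes to Des. In f/f libraries Tcf21 (29.0 to 33.5 FPKM) overlapped with Sod3 (32.4 to 37.9 FPKM) and stood clear of Hand2 (8.89 to 15.8 FPKM), while each neighbouring pair from Hand2 to Des overlapped.

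Among the ECKO libraries replicate 2 was the lowest for 9 of the 10 members, all but Des, and among the f/f libraries replicate 2 was the lowest for 6. The median CV of the members was 16.5% in ECKO and 8.49% in f/f libraries. For the tested genes averaging at least 10 CPM these medians were 10.6% in ECKO and 9.24% in f/f libraries. ECKO 2 held 19.7% mitochondrial counts, the least of the ECKO libraries, and 448 FPKM of the hepatocyte gene Alb, the most of the 6 libraries. Whether either has a part in its low marker levels was not tested.

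A further 22 genes of stellate cells were listed besides the 10, of which 21 were tested. Here 1 fell (Dcn, the collagen-binding proteoglycan decorin), 0 rose and 20 did not pass, with a median log2 fold change of -0.57. The count was 0 without ECKO 1 or f/f 3 and 4 without f/f 1, and total count scaling gave 7. Dcn had 346 ± 66.6 CPM in ECKO and 705 ± 33.3 CPM in f/f libraries (SD, n = 3 each; log2 fold change -1.03, SE 0.15, edgeR adjusted p = 0.0178; 0.0772 without ECKO 1 and 0.0779 without f/f 3). Bmp10, a circulating BMP that stellate cells release, had 9.75 ± 3.25 CPM in ECKO and 23.2 ± 5.08 CPM in f/f libraries (adjusted p = 0.0529). The 21 genes ran to both sides of 0, with 8 lower and 2 higher in every ECKO library than in any f/f library. Among all 13692 tested genes 2078 were lower and 2149 higher in this way. The 8 were Dcn, Bmp10, Pdgfrb (log2 fold change -1.53), Pdgfra (-1.30), Lhx2 (-0.86), Rgs5 (-0.76), Gdf2 (-0.75) and Steap4 (-0.61), and the 2 were Ntm (0.97) and Rspo3 (0.96), of which only Dcn passed. The 3 genes nearest to 0 were named after their values were seen. Vipr1, the receptor for vasoactive intestinal peptide, had a log2 fold change of 0.03 (SE 0.18), Hgf, hepatocyte growth factor, 0.12 (SE 0.36), and Ngfr, the low-affinity neurotrophin receptor, -0.09 (SE 0.40), with edgeR adjusted p of 0.926, 0.865 and 0.910. Lrat differed by -0.98 on the log2 scale (SE 0.38, edgeR, adjusted p = 0.183), and its groups overlapped on the CPM scale. The ratio of Tcf21 to Vipr1 counts was 0.0699, 0.0677 and 0.0766 in ECKO 1 to 3, against 0.305, 0.324 and 0.276 in f/f 1 to 3. The ratio of Cygb to Vipr1 was 0.0960 to 0.133 in ECKO and 0.216 to 0.249 in f/f libraries. Both ratios were lower in every ECKO library. Vipr1 was picked as the gene nearest to 0, so these ratios restate the falls of Tcf21 and Cygb, and no test is given.

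Of 16 genes of activated stellate cells and myofibroblasts, all tested, 9 fell, 0 rose and 7 did not pass, with a median log2 fold change of -1.66. Among all tested genes 2.79% fell, and this list too was chosen with earlier results of these data known. All ECKO libraries lay below all f/f libraries for 11 of the 16, and above them for 0. The count of 9 became 0, 4 and 2 when ECKO 1, ECKO 2 and ECKO 3 were left out in turn. It was 13, 6 and 3 for f/f 1, f/f 2 and f/f 3. Mmp2, a matrix metalloproteinase, had 5.5 ± 0.706 CPM in ECKO and 50.1 ± 23.1 CPM in f/f libraries (log2 fold change -3.19, SE 0.40, edgeR adjusted p = 0.0153), and passed with any f/f library left out (1.42e-04 to 0.0460) and missed with any ECKO library left out (0.0702 to 0.0775). Col5a1, a collagen V chain, had 16.6 ± 4.52 CPM in ECKO and 68.7 ± 14.5 CPM in f/f libraries (-2.05, SE 0.24, adjusted p = 0.0101) and missed only without ECKO 1 (0.0592). Fn1 (fibronectin) and Thbs2 (thrombospondin-2) fell by 2.47 and 0.96 on the log2 scale, with adjusted p of 0.0141 for both in edgeR and 0.0686 for both with ECKO 1 left out, and Thbs2 missed also with ECKO 3 (0.0602) or f/f 3 (0.0650) left out. Tnc (tenascin C) and Loxl1 (a lysyl oxidase) fell by 2.32 and 2.18 (adjusted p = 0.0197 and 0.0241, edgeR), and both passed with f/f 1 or f/f 2 left out and missed with any other library left out. With limma-voom Tnc and Loxl1 missed (0.0587 and 0.0733), and with the replicate block Fn1 missed (0.0571). Acta2, the smooth muscle actin of myofibroblasts, had 19 ± 16.1 CPM in ECKO and 25.6 ± 14 CPM in f/f libraries (SD, n = 3 each; edgeR, adjusted p = 0.733).

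The f/f libraries lay apart from each other in the activated genes. The median CV of the activated genes was 20.5% in ECKO and 46.8% in f/f libraries, beside 16.5% in ECKO and 8.49% in f/f libraries for the quiescence markers. For the 21 other tested stellate cell genes it was 31.9% in ECKO and 21.6% in f/f libraries. Among the quiescence markers the CV in f/f libraries ran from 0.392% to 19.9%. Col1a1, a chain of type I collagen, had 3.31 to 4.52 FPKM in ECKO libraries, against 14.3, 61.2 and 70.9 FPKM in f/f 1 to 3. Tcf21 had 5.0 to 7.36 FPKM in ECKO libraries, against 29.0, 33.5 and 33.1 FPKM in f/f 1 to 3. Col1a1 passed (adjusted p = 0.0296, edgeR) and did so with f/f 1 left out (1.18e-04), and missed with any other library left out, with no filter on low counts (0.0792) and with the replicate block (0.0532). The ratio of Cygb to Col1a1 counts was 0.524, 0.385 and 0.430 in ECKO 1 to 3, against 0.264, 0.0741 and 0.0645 in f/f 1 to 3, so every ECKO library was higher. The ratio of Tcf21 to Col1a1 was 0.382, 0.195 and 0.289 in ECKO 1 to 3, against 0.358, 0.0966 and 0.0824 in f/f 1 to 3, and these groups overlapped through f/f 1. These pairs too were chosen after their values were seen.

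**Figure D3:**
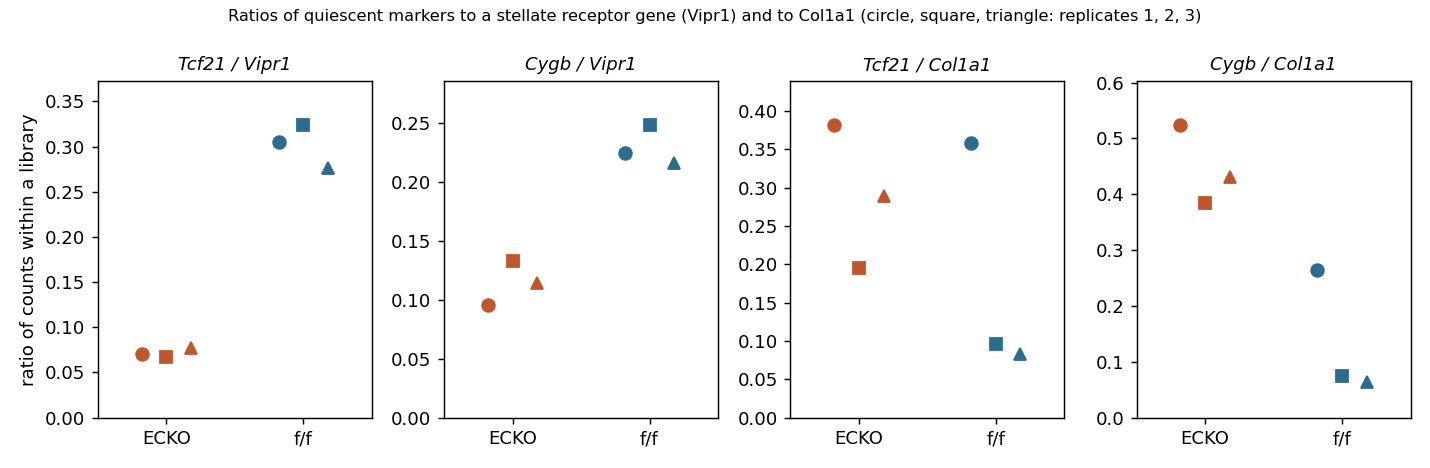
Ratio of counts within each library for 2 quiescence markers over Vipr1 and over Col1a1, ECKO left and f/f right in each panel (circles, squares and triangles are replicates 1, 2 and 3). Over Vipr1, picked because its log2 fold change was 0.03, both markers are lower in ECKO. Over Col1a1, Cygb is higher in ECKO and Tcf21 overlaps between the groups.

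**Figure D4:**
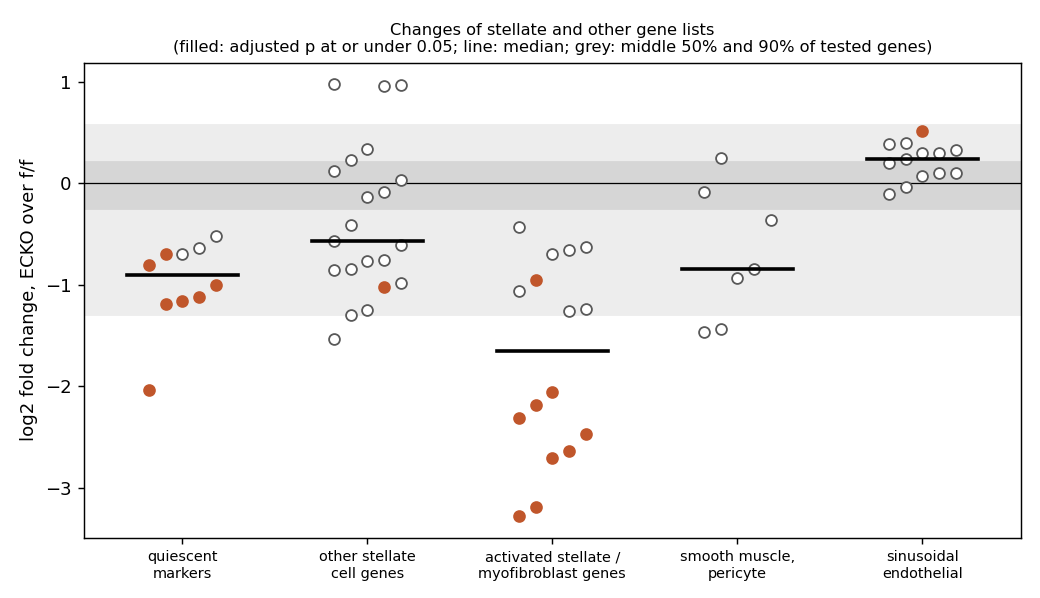
Log2 fold change (ECKO over f/f) of each tested gene in 5 lists, filled where the adjusted p was at or under 0.05, with the list's median as a line and the middle 50% and 90% of all tested genes in grey. The quiescence markers lie between -2.04 and -0.52, the other stellate genes spread to both sides of 0, the activated genes have a median of -1.66, and the sinusoidal endothelial markers have a median of 0.24.

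Markers of other cell types were listed for the same libraries. Of 13 genes listed as sinusoidal endothelial markers 1 rose, 0 fell and 12 did not pass. Their median was 0.24, with summed levels of 4795 to 5664 FPKM in ECKO and 5005 to 5401 FPKM in f/f libraries. The gene that rose was Pecam1, a gene of endothelium in general (log2 fold change 0.51, edgeR adjusted p = 0.0456). It missed the threshold whichever library was left out (0.0554 to 0.164). Pecam1 had a log2 fold change of 0.28 (adjusted p = 0.378) under total count scaling and 0.27 with limma on log2(FPKM + 0.1) and log2(FPKM + 1) (0.428 and 0.431), and missed with limma-voom (0.0517) and the replicate block (0.0610). Oit3, next by p, had a log2 fold change of 0.39 (adjusted p = 0.0850). Under total count scaling all genes shifted to a median of -0.22, so small changes of either sign depend on the scaling. None of 9 tested portal fibroblast markers of 10 listed passed (median -0.90; 17.0 to 54.3 FPKM summed in ECKO, 19.4 to 79.1 FPKM in f/f), with Dpt at a log2 fold change of -2.31 (adjusted p = 0.0651) and Thy1 at -1.60 (0.124). Of 6 mesothelial markers 2 fell, Lrrn4 (-2.56, adjusted p = 0.0337) and Wt1 (-2.22, adjusted p = 0.0461), with summed levels of 6.65 to 22.8 FPKM in ECKO and 13.7 to 34.5 FPKM in f/f libraries. Lrrn4 passed only without f/f 1 (0.0232, otherwise 0.0594 to 0.114), and Wt1 missed whichever library was left out (0.0531 to 0.128). With limma-voom both missed (0.0586 for Lrrn4 and 0.0542 for Wt1), and Wt1 missed with the replicate block (0.0649) and with limma on log2(FPKM + 0.1) (log2 fold change -1.43, 0.0566) and log2(FPKM + 1) (-0.32, 0.0649). None of 8 hepatocyte markers passed (median 0.14; 285 to 642 FPKM in ECKO, 425 to 557 FPKM in f/f), and none of 8 tested Kupffer cell and monocyte markers of 9 listed did (median -0.19; 17.5 to 25.5 FPKM in ECKO, 17.7 to 75.3 FPKM in f/f). None of 5 cholangiocyte markers passed (median -1.20; 24.3 to 36.7 FPKM in ECKO, 42.0 to 142 FPKM in f/f). Schwann cell markers, which could accompany Nes, were near 0, at 0.137 to 0.222 FPKM summed in ECKO and 0.320 to 0.372 FPKM in f/f libraries, with Sox10 at 0 counts in all libraries. All ECKO libraries lay below all f/f libraries for 4 of 5 cholangiocyte, 3 of 3 tested lymphatic and 3 of 6 mesothelial markers. The same held for 3 of 7 tested smooth muscle, 2 of 8 Kupffer cell and 1 of 9 portal fibroblast markers. It held for 0 sinusoidal endothelial, hepatocyte or Schwann cell markers. They lay above for 6 sinusoidal endothelial, 1 hepatocyte and 1 Kupffer cell marker, and for 0 in the other lists of this kind. The part of any of these cells in the marker levels was not tested.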

How the data were processed

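RNA sequencing was deposited for 6 LSEC libraries, 3 ECKO and 3 f/f. The counts are raw and whole per gene, made by the authors with no scaling, per the file headers. The FPKM values are the authors' own, per the file headers, and equal the count over gene length and library total within a relative spread of 4.53e-06 (7566 genes). The submitters' processing notes name the tools HISAT2 2.0.4 and StringTie 1.3.0 and, as builds, GRCm38.p4 and mm10. The sources used here do not give how reads were counted, or whether by strand.

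Counts were tested in R 4.3.3 with edgeR 4.0.16 (filterByExpr, minimum count 10 and minimum total 15, TMM scaling, robust quasi-likelihood F-test, two-sided, genotype as the only term, Benjamini-Hochberg over 13692 genes, threshold 0.05). SE is the absolute log2 fold change over the square root of F. CPM is TMM-scaled, and its precision is limited by 17171850 to 25062755 counts per library. Alternatives used DESeq2 1.42.0 and limma 3.58.1. Members and lists were chosen with earlier results of these data known. Named genes are the 10 members, Tgfbr2, the called genes with the smallest p of each list (up to 6) or its leading 2 (none for the hepatocyte, Kupffer cell, cholangiocyte and Schwann cell lists), and others said to be named for a role or after their values were seen. Stab2, Pecam1 and Lrat serve as level checks. A further marker list is not reported here. Overlaps come from GENCODE M21, promoters from RefSeq. Of the table's identifiers 34267 matched the reference names, and 0 per-sample columns were left out.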

Additional observations from a re-analysis of the deposited data

How the results depend on the processing

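All 10 log2 fold changes stayed negative under 15 alternatives. Total count scaling called 1272 genes and the DESeq2 Wald test 1484, against 552 in the edgeR test, and limma-voom called 315. Falls made up 69.2% of the 552 calls, 95% under total count scaling and 92.3% and 91.9% on log2(FPKM + 0.1) and log2(FPKM + 1). All 10 members passed under total count scaling (Des -0.87, Hand2 -0.97, Nes -0.78) and DESeq2 (Des -0.65, Hand2 -0.71, Nes -0.53). Des also passed with DESeq2 size factors (-0.65), no filter (-0.63) and log2(FPKM + 0.1) (-0.85). Pth1r did not pass with limma-voom (-0.83, adjusted p = 0.0517). With the replicate number as a block 440 genes and 6 members passed, and Reln did not (-1.24, adjusted p = 0.0566). Same-numbered libraries deviated together with correlations of 0.09, 0.15 and -0.05, and differently numbered ones with correlations of -0.15 to 0.09. With so few libraries these values cannot decide whether the numbers are pairs. The main test kept genotype as the only term. Leaving out the mitochondrial genes, an alternative chosen after seeing the data, left 7 members. Leaving out single libraries gave 35 to 1012 genes and 1 to 8 members, with log2 fold changes of -2.18 to -1.83 for Tcf21, -1.04 to -0.92 for Cygb, -1.34 to -0.94 for Reln, -0.80 to -0.61 for Colec11, -1.26 to -0.96 for Sod3, -1.30 to -0.94 for Bmp5, -0.89 to -0.67 for Pth1r, -0.73 to -0.55 for Des, -0.85 to -0.56 for Hand2 and -0.62 to -0.39 for Nes. On log2(FPKM + 1), where the pseudocount shrinks changes of low genes, Tnc, Lrrn4 and AV026068 still passed with log2 fold changes of -1.05, -1.03 and -1.03.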
